A study of Mus musculus with 8 samples.

Results

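Integrins are membrane receptors made of 1 alpha and 1 beta subunit that bind matrix proteins such as fibronectin, collagens and laminins outside the cell. Inside it, talin and kindlin bind the beta tail, and vinculin, alpha-actinin, filamin, tensin and the complex of integrin-linked kinase, PINCH and parvin tie the receptor to actin, forming the focal adhesion. Focal adhesion kinase, paxillin and p130Cas signal from this site, and force on the adhesion is known to feed into the activity of the coactivator YAP. In the gut wall these proteins hold smooth muscle and mesenchyme to their matrix and epithelium to its basement membrane.

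A set of 39 genes for integrin subunits and focal adhesion components was read from whole stomachs of mouse embryos at E13.5, as those loci whose deposited gene name was one of the 39. Of 23165 named loci, 38 carried 1 of the names alone, and Itga1 appeared only in a locus joined with Pelo. The 4 YAP5SA libraries came from embryos with Nkx3.2Cre and R26-YAP5SA, in which Cre made where the Nkx3-2 gene is active, chiefly in gut and other mesenchyme, switches on a YAP mutant that the Hippo kinases cannot inhibit. The 4 wild type libraries came from wild type embryos of that stage. No library carried Cre alone, so effects of Cre and of YAP5SA cannot be told apart, and the labels do not say whether a library was 1 stomach or a pool.

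Named loci held 7152526 to 8353242 fragments in the YAP5SA libraries and 6204932 to 6783555 in the wild type libraries. Yap1 itself averaged 224 ± 13.46 CPM in YAP5SA and 232 ± 7.46 CPM in wild type (SD, n = 4 each, adjusted p = 0.555). No source used here says whether transgene fragments were assigned to it. The YAP target Ankrd1 averaged 45.4 ± 21.4 CPM in YAP5SA and 0.391 ± 0.398 CPM in wild type (adjusted p = 7.1e-05). In a principal component analysis the first component (51.7% of the variance) separated the genotypes. The libraries numbered 1 of both genotypes lay together at one end of the second component (13.4% of the variance), and YAP5SA library 1 held more epithelial marker RNA than the other YAP5SA libraries. Levels below are fragments scaled to library size (CPM), fold changes are log2 of YAP5SA over wild type with a standard error (SE), and adjusted p comes from edgeR's quasi-likelihood test over 14574 loci with Benjamini-Hochberg adjustment.

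Of the 38 genes with a locus of their own, all passed the low-count filter and 12 were called at an adjusted p under 0.05, which is 31.6%, against 18.9% of all tested loci. The 4 that rose in YAP5SA stomachs were Tns1, Bcar1, Itgav and Zyx (9.06% of all loci rose), and the 8 that fell were Itgb3, Itga5, Fermt1, Itgb6, Itgb8, Fhl2, Itgb5 and Itga11 (9.85% of all loci fell). The receptors carried most of these calls: 7 of 16 integrin subunits were called, 6 of them lower, with a median log2 fold change of -0.24. Among 22 cytoplasmic components 5 were called, 3 higher and 2 lower, with a median of 0.01. Over the 38 genes the median log2 fold change was -0.02, and over all tested loci it was -0.01. In 14 of the 38 the genotypes did not overlap, against 23.3% of all tested loci. With the library number as a block, 15 of the 38 were called, 4 higher and 11 lower, against 20.8% of all loci. Without YAP5SA library 1 the count was 15, with 4 higher and 11 lower, and without both libraries numbered 1 it was 12, with 3 higher and 9 lower.

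**Figure D1:**
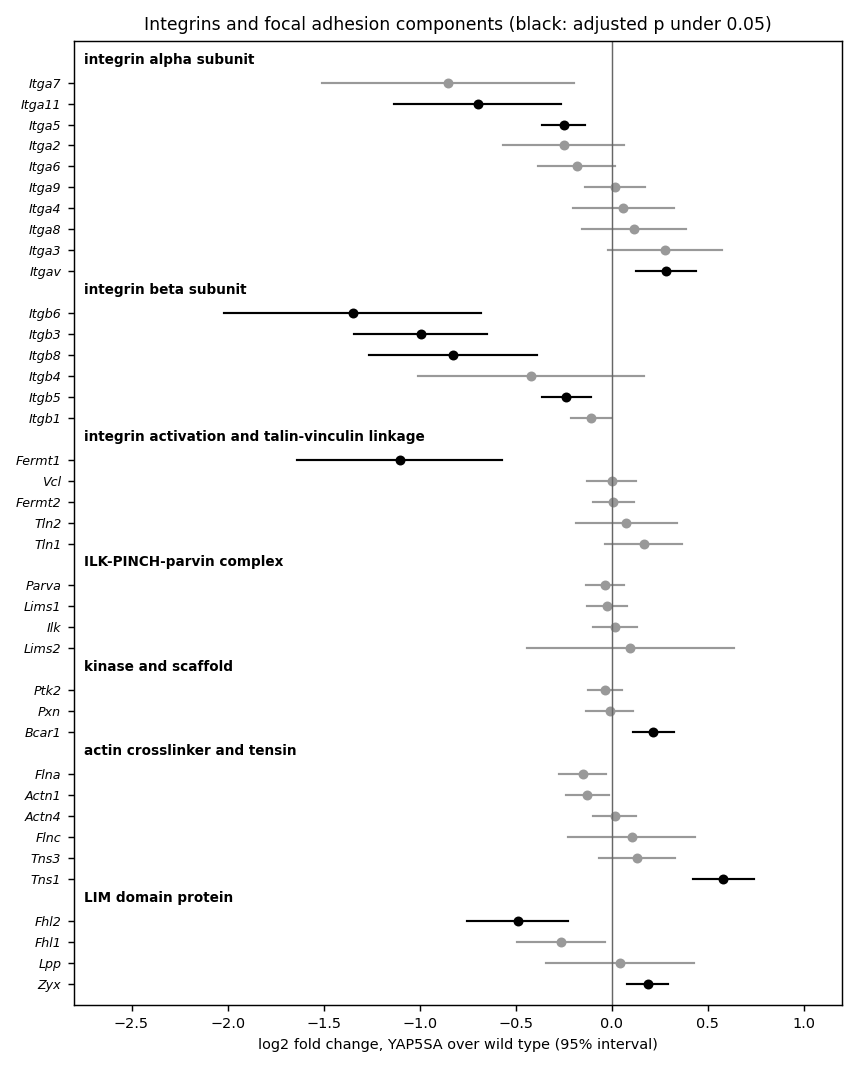
Log2 fold change of YAP5SA over wild type for the 38 genes, grouped by role, with 95% intervals from 4 libraries a genotype; black points had an adjusted p under 0.05. Called beta subunits lie between -1.35 and -0.24, and the 4 genes of the ILK-PINCH-parvin complex lie between -0.04 and 0.10.

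Levels per length (FPKM) showed which receptor transcripts dominated the tissue. Itgb1, the beta subunit shared by most collagen, laminin and fibronectin receptors, was the most abundant beta subunit, at 78.2 ± 3.23 FPKM in YAP5SA and 83.6 ± 0.932 FPKM in wild type. Itgb5 came next, with 42.5 ± 2.60 FPKM in YAP5SA and 49.5 ± 2.42 FPKM in wild type. The other 4 beta subunits stood far below, between 1.47 and 3.79 FPKM on average in YAP5SA and between 3.15 and 6.92 FPKM in wild type. Within these 4, Itgb6 and Itgb8 differed by less than the SD of Itgb6 in both genotypes, and Itgb3 and Itgb4 by less than their SDs in YAP5SA only.

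Among alpha subunits Itga8, which with Itgb1 binds nephronectin and marks mesenchyme and smooth muscle, averaged 44.5 ± 7.44 FPKM in YAP5SA and 39.5 ± 5.90 FPKM in wild type. Itga5, the alpha chain of the classical fibronectin receptor, averaged 39.7 ± 2.35 FPKM in YAP5SA and 46.9 ± 1.13 FPKM in wild type. These 2 led the 10 alpha subunits with a locus of their own in both genotypes, Itga8 ahead in YAP5SA and Itga5 ahead in wild type, and the gap between them was within the SD of Itga8 in YAP5SA but not in wild type. The joined locus of Itga1 and Pelo, whose FPKM cannot be split between the genes, was at 58.8 ± 4.90 FPKM in YAP5SA and 46.9 ± 2.79 FPKM in wild type. Itga3, Itga6, Itga9 and Itgav followed between 23.0 and 36.4 FPKM on average in YAP5SA and between 18.8 and 29.8 FPKM in wild type. Neighbours in this order differed by less than the larger SD for Itga6, Itga9 and Itgav in YAP5SA and for Itga3 and Itga6 in wild type. Itga2 and Itga4 were lower, and Itga11 and Itga7 were the least abundant of the 10, at 1.97 and 1.56 FPKM in YAP5SA and 3.18 and 2.82 FPKM in wild type.

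**Figure D2:**
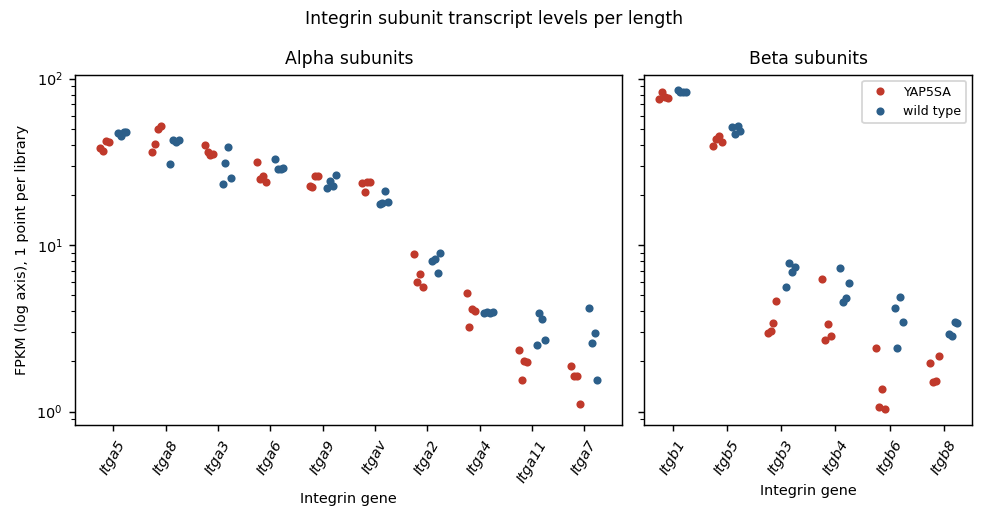
FPKM on a log axis for each integrin subunit with a locus of its own, 1 point per library, YAP5SA left of wild type. Itgb1 and Itgb5 lie far above the other beta subunits in both genotypes. Itgb3, Itgb5, Itgb6, Itgb8, Itga5 and Itga11 show no overlap between genotypes, in Itgb6 only just.

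Of 6 beta subunits 4 were called, all lower: Itgb3, Itgb5, Itgb6 and Itgb8, each a known partner of the alpha v chain. Over all tested loci 18.9% were called and 9.85% were called lower. Itgb3, part of the vitronectin receptor of vessel wall, platelets and osteoclasts (chr11:104608000-104670471 on mm10), had 16.6, 17.3, 19.3 and 26.2 CPM in YAP5SA libraries 1 to 4, against 31.8, 44.4, 39.6 and 42.3 CPM in wild type libraries 1 to 4. Every YAP5SA library was below every wild type library. Its log2 fold change was -0.995 ± 0.16 (SE, adjusted p = 0.00172). The megakaryocyte markers, 5 genes of cells that carry Itgb3 with Itga2b, summed to 21.4 to 26.1 CPM in YAP5SA and 15.8 to 23.8 CPM in wild type, with 1 of 2 tested markers called. That marker, Pf4, had a log2 fold change of 0.52 ± 0.16 (adjusted p = 0.0404) and missed the threshold without any 1 library except YAP5SA library 2 (0.0541 to 0.0807). Itga2b itself averaged 8.03 ± 1.67 CPM in YAP5SA and 7.37 ± 1.35 CPM in wild type (adjusted p = 0.757). The 10 endothelial markers summed to 790 to 904 CPM in YAP5SA and 710 to 839 CPM in wild type, with 1 called higher and 0 lower. The part of either cell type in the Itgb3 values was not tested.

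Itgb6 (chr2:60598292-60722603), an epithelial subunit whose alpha v pair releases active TGF-beta from its latent complex, had 11.1, 4.97, 6.34 and 4.83 CPM in YAP5SA, against 19.5, 11.3, 22.9 and 16.3 CPM in wild type. The genotypes did not overlap, but YAP5SA library 1 lay just under wild type library 2. Its log2 fold change of -1.35 ± 0.30 (SE, adjusted p = 0.0108) became -1.69 without YAP5SA library 1. Itgb8 (chr12:119162803-119238276), another TGF-beta activating partner of alpha v, had 5.75, 4.42, 4.45 and 6.31 CPM in YAP5SA, against 8.58, 8.38, 10.2 and 10.1 CPM in wild type. These levels were low in all 8 libraries and separated the genotypes, with a log2 fold change of -0.83 ± 0.20 (SE, adjusted p = 0.0148). With library factors set within bins of coverage density the change was -0.61 and the adjusted p 0.0529. Itgb8 is also known from neural cells, and 7 of 9 markers of enteric neurons and 5 of 6 of enteric glia fell. Their sums were 268 to 346 CPM and 68.9 to 105 CPM in YAP5SA, against 511 to 615 CPM and 168 to 195 CPM in wild type, and their part in the Itgb8 values was not tested.

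Itgb5 (chr16:33829620-33949916), the abundant alpha v partner that binds vitronectin, had 121, 132, 140.2 and 127 CPM in YAP5SA, against 159.8, 145, 160.3 and 147 CPM in wild type. The difference was small but without overlap, at -0.24 ± 0.06 on the log2 scale (SE, adjusted p = 0.0178). It missed the threshold without any 1 of YAP5SA library 2, YAP5SA library 4, wild type library 1 or wild type library 3, with adjusted p between 0.0505 and 0.0534, and without both libraries numbered 1 (0.0719).

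Itgb1 was not called. It had 306, 336, 315 and 310.0 CPM in YAP5SA, against 346, 340.5, 338 and 342 CPM in wild type. The genotypes were close and did not overlap in CPM, but in FPKM YAP5SA library 2 (82.8) lay above wild type library 3 (82.7). The 95% interval of the Itgb1 log2 fold change was -0.21 to -0.01 (adjusted p = 0.139). Itgb4, which pairs with Itga6 in epithelial hemidesmosomes, ranged over 17.04 to 35.7 CPM in YAP5SA and 22.6 to 46.1 CPM in wild type, highest in library 1 of each genotype (log2 fold change -0.42 ± 0.27, adjusted p = 0.324).

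The alpha v chain itself went the other way. Itgav (chr2:83723788-83806916), which pairs with Itgb1, Itgb3, Itgb5, Itgb6 and Itgb8, had 159, 137, 157 and 158 CPM in YAP5SA, against 116, 125, 140.3 and 121 CPM in wild type. YAP5SA library 2 lay below wild type library 3, and the other YAP5SA libraries lay above all wild type libraries. Its log2 fold change was 0.28 ± 0.07 (SE, adjusted p = 0.0176), and it missed the threshold without YAP5SA library 3 (0.0504) or without both libraries numbered 1 (0.0831). In FPKM, the 4 called partners, without Itgb1, summed to 49.2 ± 2.07 in YAP5SA and 63.3 ± 3.01 in wild type (SD, n = 4 each). The ratio of that sum to Itgav was 1.99 to 2.36 in the YAP5SA libraries and 3.14 to 3.65 in the wild type libraries. Since the 4 were called lower and Itgav higher, this ratio restates those calls and adds no separate evidence. Most of the sum was Itgb5, at 42.5 FPKM in YAP5SA and 49.5 FPKM in wild type. With Itgb1 counted as a partner too, the sum was 127 ± 4.17 FPKM in YAP5SA and 147 ± 3.07 FPKM in wild type, and its ratio to Itgav was 5.22 to 6.34 in YAP5SA and 7.03 to 8.48 in wild type. Itgb1 made up 59.6 ± 1.37% of the summed FPKM of the 6 beta subunits in YAP5SA and 54.8 ± 1.23% in wild type. These are transcript ratios and no measure of receptor pairs at the cell surface.

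Among the 10 alpha subunits, 1 rose (Itgav) and 2 fell, where 9.06% of all tested loci rose and 9.85% fell. Itga5 (chr15:103344286-103366748) had 163, 157, 177 and 175 CPM in YAP5SA, against 200.2, 193, 204 and 202 CPM in wild type. All YAP5SA libraries were lower and the spread within each genotype was small. The log2 fold change was -0.25 ± 0.05 (SE, adjusted p = 0.00619). Itga11 (chr9:62677855-62783979), a collagen receptor chain of mesenchymal cells, had 11.3, 7.46, 9.71 and 9.52 CPM in YAP5SA, against 12.1, 19.0, 17.5 and 13.1 CPM in wild type. The genotypes did not overlap, though YAP5SA library 1 and wild type library 1 were close. Its fall of -0.70 ± 0.20 on the log2 scale (SE, adjusted p = 0.0308) had an adjusted p of 0.0509 with the library number as a block, and missed the threshold without YAP5SA library 2, 3 or 4 or wild type library 2 or 3 (0.0677 to 0.104).

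The collagen receptor gene Itga1 shared its only locus, chr13:114953152-115102281, with Pelo, which lies inside it, so the values are those of both genes. The locus had 272, 220.0, 209.8 and 182 CPM in YAP5SA, against 166, 164, 158 and 190.1 CPM in wild type. It was highest in YAP5SA library 1, and YAP5SA library 4 lay below wild type library 4. The difference was 0.38 ± 0.11 on the log2 scale (SE, adjusted p = 0.0344), with an adjusted p of 0.0701 under the block. Without YAP5SA library 2 or 3, or wild type library 1, 2 or 3, it was 0.06 to 0.0886, and without both libraries numbered 1 it was 0.0934.

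None of the remaining 7 alpha subunits was called. Itga7, a laminin receptor chain of muscle, ranged over 4.29 to 7.31 CPM in YAP5SA and 6.0 to 16.4 CPM in wild type, with a log2 fold change of -0.85 ± 0.30 (adjusted p = 0.0711, 0.0169 under the block, 0.0188 without wild type library 4). Itga6, the laminin receptor chain of basal epithelium and endothelium, ranged over 126 to 170.0 CPM in YAP5SA and 155 to 179.7 CPM in wild type. Its log2 fold change was -0.18 ± 0.09 (adjusted p = 0.195, 0.0309 under the block). Both Itga6 and the collagen receptor chain Itga2 were highest among YAP5SA libraries in library 1, and without it their log2 fold changes were -0.27 (adjusted p = 0.0167) and -0.41 (adjusted p = 0.0186). Itga3, another laminin receptor chain, ranged over 164 to 187 CPM in YAP5SA and 111 to 186 CPM in wild type (0.28 ± 0.13 on the log2 scale, adjusted p = 0.191). With wild type library 3 left out the change was 0.44 (adjusted p = 0.0136). Itga8, Itga9 and Itga4 had log2 fold changes of 0.11 ± 0.12, 0.02 ± 0.07 and 0.06 ± 0.12 (SE), with adjusted p between 0.587 and 0.901.

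**Figure D3:**
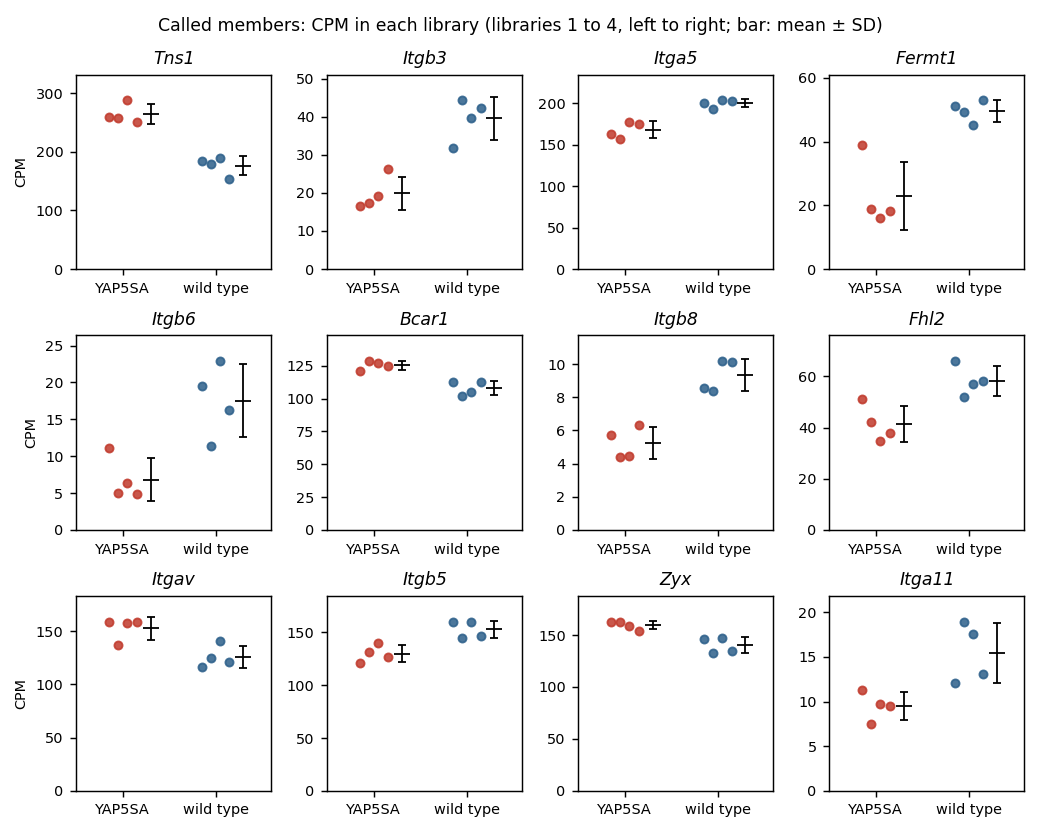
CPM of the 12 called genes in each library, libraries 1 to 4 from left to right within a genotype, with mean ± SD. In Fermt1 and Itgb6, YAP5SA library 1 lies above the other 3 YAP5SA libraries, and Itgav is the only panel in which the genotypes overlap.

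Of the proteins that activate integrins, only the epithelial kindlin was called. Fermt1 (chr2:132904179-132946036), kindlin-1, had 38.9, 18.8, 15.9 and 18.1 CPM in YAP5SA, against 51.2, 49.2, 45.1 and 53.1 CPM in wild type. YAP5SA library 1 lay between the other YAP5SA libraries and wild type. On the log2 scale the change was -1.10 ± 0.24 (SE, adjusted p = 0.00945), and -1.49 without YAP5SA library 1. Fermt2, kindlin-2, the form of mesenchyme and muscle, ranged over 174 to 196 CPM in YAP5SA and 182 to 192 CPM in wild type, with a 95% interval of -0.10 to 0.11 for its log2 fold change.

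Fermt1 and Itgb6 belong to epithelium, and all 13 epithelial markers tested fell, with a median log2 fold change of -0.87. Their sum was 871 CPM in YAP5SA library 1 and 626 to 659 CPM in the other YAP5SA libraries, against 1105 to 1398 CPM in wild type. No epithelial marker was at 0. The 4 with the smallest p, the claudins Cldn6 and Cldn7, the adhesion molecule Epcam and the endoderm factor Foxa2, had log2 fold changes of -0.71, -0.96, -0.69 and -1.05. The part of epithelial RNA in the values of Fermt1, Itgb6, Itgb4, Itga6, Itga2 and Itga3 was not tested. Of these only Fermt1 and Itgb6 were called, and Itga3 went the other way, with a log2 fold change of 0.28 ± 0.13. In whole stomachs, fewer cells of a type and less RNA per cell cannot be told apart.

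Talin and vinculin, the first links from integrin to actin, were not called. Tln1 had 426, 428, 480.3 and 452 CPM in YAP5SA, against 349, 411, 469 and 363 CPM in wild type. Wild type libraries 2 and 3 were higher than wild type libraries 1 and 4, and wild type library 3 lay among the YAP5SA values. Its log2 fold change was 0.17 ± 0.09 (SE, adjusted p = 0.245), and without wild type library 3 it was 0.26 (adjusted p = 0.0362). Vcl had 267, 262, 271 and 266 CPM in YAP5SA, against 242, 264, 293 and 269 CPM in wild type. The YAP5SA libraries lay within the wild type range, and the 95% interval of the log2 fold change was -0.13 to 0.13 (adjusted p = 0.992). Tln2, the second talin, had an interval of -0.19 to 0.34 (adjusted p = 0.730).

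The scaffold complex under the integrin tail showed no called gene among 4. Ilk, the pseudokinase integrin-linked kinase, had 94.1, 107, 104 and 97.9 CPM in YAP5SA, against 99.8, 101, 100.5 and 96.6 CPM in wild type. The wild type values lay within the YAP5SA range, and the 95% interval of the log2 fold change was -0.10 to 0.13 (adjusted p = 0.876). Since 89.7% of the exonic bases of Ilk are also exonic in Taf10 or Rrp8, and no source used here says whether strand was used, its values may hold fragments of those genes. The same holds for 25.5% of the bases of Vcl, shared with Ap3m1. In all, 9 genes of the set shared over 5% of their exonic bases with other genes. Of the called genes, Itgav shared 5.9% with Gm13684 and Zyx 4.38% with Epha1, and the others none. Parva, alpha-parvin, and Lims1, PINCH-1, had intervals of -0.14 to 0.06 and -0.13 to 0.08. Lims2, PINCH-2, was much less abundant and less precise, with an interval of -0.44 to 0.64.

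Of the 3 signalling components 1 was called, where 18.9% of all tested loci were called. Bcar1 (chr8:111710468-111743849), the p130Cas scaffold that is phosphorylated when adhesions are stretched, had 121, 129, 127 and 125 CPM in YAP5SA, against 113, 102, 105 and 112 CPM in wild type. All YAP5SA libraries were higher, by a small margin. This rise was 0.22 ± 0.05 on the log2 scale (SE, adjusted p = 0.0114). Ptk2, focal adhesion kinase, had 158, 163, 164 and 161 CPM in YAP5SA, against 159.7, 169.8, 167 and 166 CPM in wild type. The values overlapped, and the 95% interval of the log2 fold change was -0.12 to 0.05 (adjusted p = 0.606). Pxn, paxillin, had an interval of -0.14 to 0.11 (adjusted p = 0.917).

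Among actin crosslinkers and tensins, Tns1 stood out. Tns1 (chr1:73910231-74124447), tensin 1, which binds actin and integrin tails in fibrillar adhesions, had 260.0, 257, 288 and 249.9 CPM in YAP5SA, against 185, 179.5, 189 and 153 CPM in wild type. The lowest YAP5SA library was well above the highest wild type library. The log2 fold change of 0.58 ± 0.07 (SE, adjusted p = 0.00048) had the smallest p of the 38 genes. Its paralog Tns3 ranged over 354 to 417 CPM in YAP5SA and 313 to 403 CPM in wild type and was not called (log2 fold change 0.13 ± 0.09, adjusted p = 0.363).

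Flna, filamin A, the most abundant of the 38 transcripts per length in both genotypes at 89.2 ± 4.72 FPKM in YAP5SA and 98.3 ± 3.84 FPKM in wild type, ranged over 702 to 786 CPM in YAP5SA and 801 to 878 CPM in wild type. The genotypes did not overlap, the log2 fold change was -0.15 ± 0.06 (SE, adjusted p = 0.0831), and the adjusted p was 0.0378 under the block and 0.0127 by DESeq2. Actn1, alpha-actinin 1, also did not overlap, at 214 to 234 CPM in YAP5SA and 238 to 259.8 CPM in wild type (adjusted p = 0.106). Actn4, alpha-actinin 4, had a 95% interval of -0.10 to 0.13 for its log2 fold change. Flnc, the filamin of muscle, varied more within wild type, 281 to 462 CPM, than between the means, 380.0 ± 47.1 CPM in YAP5SA and 354 ± 83.6 CPM in wild type (adjusted p = 0.703).

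The 4 LIM domain proteins included 1 that rose and 1 that fell, where 9.06% of all tested loci rose and 9.85% fell. Zyx (chr6:42349828-42380558), zyxin, which gathers on stretched actin, had 162, 163, 159 and 154 CPM in YAP5SA, against 146, 133, 147 and 134 CPM in wild type. All YAP5SA libraries were higher, with a log2 fold change of 0.19 ± 0.05 (SE, adjusted p = 0.0221). The adjusted p was 0.0545 without YAP5SA library 3, 0.0545 without wild type library 2 and 0.0635 without wild type library 4. Lpp, a zyxin relative of smooth muscle, had 293, 154, 196 and 203 CPM in YAP5SA, against 165, 203, 234 and 221 CPM in wild type. YAP5SA library 1 was the highest and YAP5SA library 2 the lowest of all 8, and the 95% interval was -0.34 to 0.43 (adjusted p = 0.905).

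Fhl2 (chr1:43122956-43196689), a cofactor in heart and smooth muscle that also sits at adhesions, had 51.0, 42.0, 34.8 and 37.8 CPM in YAP5SA, against 66.1, 51.7, 57.0 and 58.3 CPM in wild type. The highest YAP5SA library, library 1, was just under the lowest wild type library. The fall was -0.49 ± 0.12 on the log2 scale (SE, adjusted p = 0.0164), and the adjusted p was 0.0568 without YAP5SA library 4 and 0.0543 without wild type library 1. Fhl1, its relative in muscle, ranged over 46.4 to 65.4 CPM in YAP5SA and 64.4 to 74.8 CPM in wild type (log2 fold change -0.27 ± 0.10, adjusted p = 0.105, 0.0295 under the block, 0.0471 without YAP5SA library 1).

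Of 10 smooth muscle markers 7 fell and none rose, with a median log2 fold change of -0.62. Their sum was 901 to 1123 CPM in YAP5SA and 1675 to 1805 CPM in wild type, and none was at 0. The myosin kinase Mylk, the actin-binding Synpo2, the actin Actg2 and the myosin Myh11 had log2 fold changes of -0.79, -1.13, -1.15 and -1.48. Of 8 striated muscle markers tested 5 rose, with sums of 84.3 to 147 CPM in YAP5SA and 57.2 to 103 CPM in wild type. The part of either muscle in the values of Fhl2, Fhl1, Itga7, Flnc, Itga8 and Lpp was not tested. Of these only Fhl2 was called, and Flnc, Itga8 and Lpp had log2 fold changes of 0.10, 0.11 and 0.04.

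**Figure D4:**
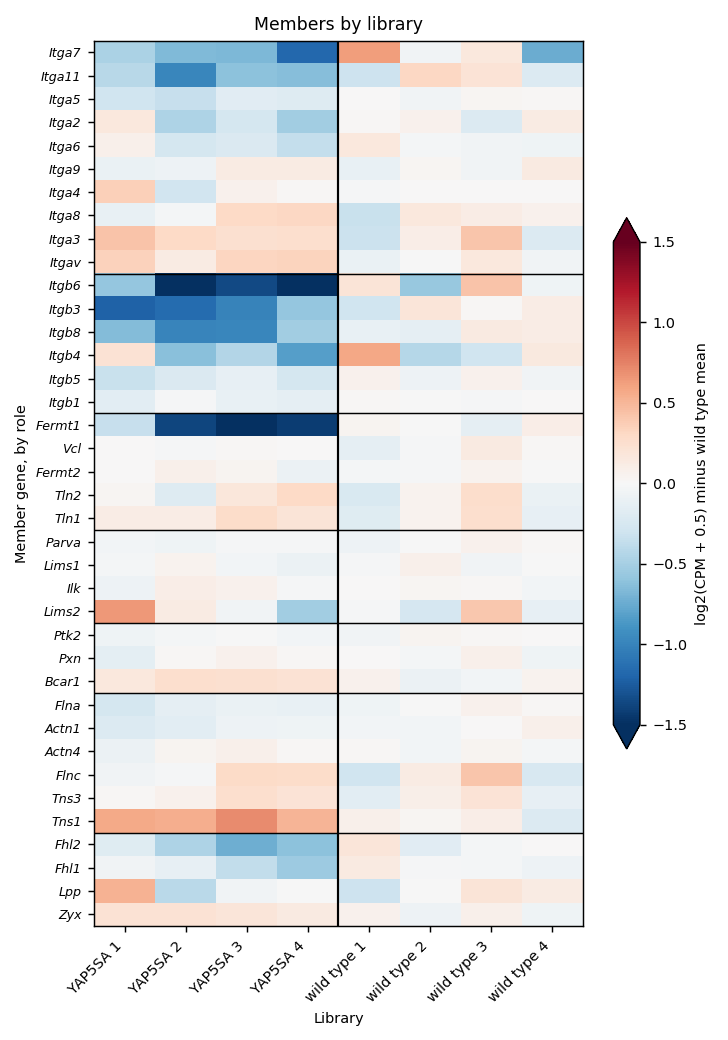
Level of each gene in each library as log2(CPM + 0.5) minus the wild type mean, grouped by role, with colours ending at -1.5 and 1.5. Itgb6 and Fermt1 are among the darkest blue in YAP5SA libraries 2 to 4, and Flnc, Tln1 and Itga3 are higher in wild type libraries 2 and 3 than in wild type libraries 1 and 4.

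Coverage density, the mean number of fragments per exonic base, was lower at the receptors, with a median of 0.0714 for the 16 integrin subunits and 0.195 for the 22 cytoplasmic components. It was 0.167 for all 38 genes and 0.0768 for all tested loci. Flna (0.598), Itgb1 (0.568) and Actn4 (0.354) were the densest, and Itgb8 (0.00455), Itga7 (0.00731) and Itgb6 (0.0117) the sparsest. In the densest of 10 bins, above 0.2318 fragments per base, the median slope of log fragments on log library depth within genotypes, over 4 libraries each, was 0.351 in YAP5SA and 0.735 in wild type, where 1 would mean that counts scale with depth. In the sparsest bin it was 2.82 in YAP5SA and 0.698 in wild type. These medians cover loci with a mean of at least 20 fragments, 649 in the sparsest bin and 1277 in the densest. YAP5SA library 1 held 8353242 fragments and the other YAP5SA libraries 7152526 to 7540150, so the YAP5SA slopes rest largely on library 1. Whether the RNA make-up of that library, rather than depth, set the YAP5SA slopes was not tested.

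The share of loci called also moved with density, and was 20% in the sparsest bin, 27.7% in the next and 14.0% in the densest. The densest bin held 12 of the 38 genes, of which 2 were called (16.7%), Itga5 and Itgb5. The other 26 held 10 called genes (38.5%), where the share of all loci called was 14.1% to 27.7% from bin to bin. Over loci with a mean of at least 20 fragments, the median log2 fold change was -0.19 in the sparsest bin and -0.05 in the densest. These were 649 of the 1279 tested loci of the sparsest bin and 1277 of the 1279 of the densest. With library factors set within each bin, 11 of the 38 were called, 4 higher and 7 lower, and Itgb8 was the 1 that lost its call. Itga5 and Itgb5 then had log2 fold changes of -0.21 (adjusted p = 0.0149) and -0.20 (adjusted p = 0.0168), and Itga7 one of -0.62 (adjusted p = 0.142).

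**Figure D5:**
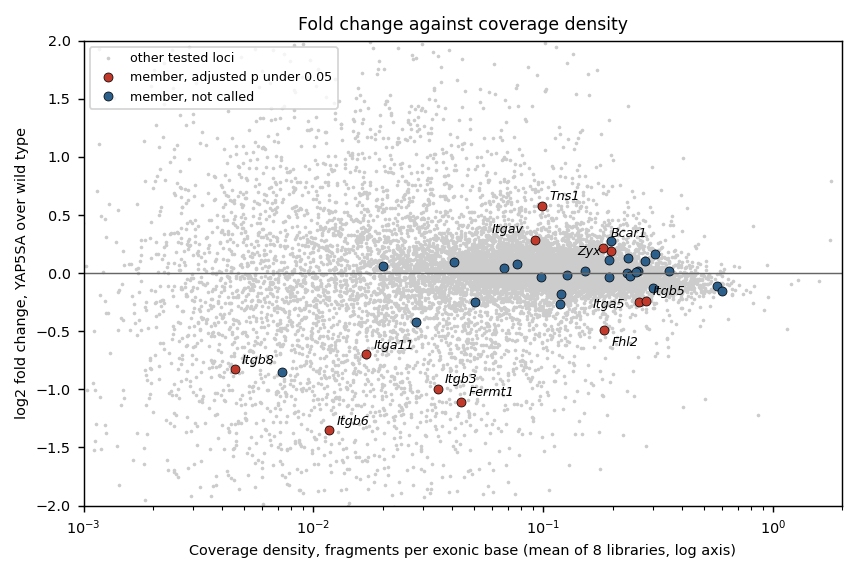
Log2 fold change of YAP5SA over wild type against fragments per exonic base on a log axis, for loci with an annotated length, drawn between -2 and 2. The 4 sparsest called genes, Itgb8, Itgb6, Itga11 and Itgb3, lie between -1.35 and -0.70, and the 2 called genes of the densest bin lie at -0.25 and -0.24.

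Promoters were read for motifs of the factors that YAP and smooth muscle genes are known to use. RefSeq promoters on GRCm38.p6 were matched to 30 of the genes by 40 windows of the 250 bases before a transcript start. The TEAD core GGAATG, searched on both strands, was present in 15% of these windows and in 12.6% of all 32851. The genes were Actn4, Flna, Flnc, Itgb1, Lpp and Vcl, and none of them was called. The CArG box, the element bound by serum response factor, whose ends pair with each other so that both strands give the same match, was present in 15% of the windows and in 1.47% of all. These windows belonged to 5 genes: Fhl2 with 2 starts and Itgb6, both lower in YAP5SA, and Fhl1, Vcl and Fermt2, which were not called. No match of one motif overlapped the other, and some of these starts lie inside the locus rather than at its end. A match is a string of letters and no evidence of binding.

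The CArG windows are printed because both a called LIM gene and the uncalled vinculin carry them, and 2 TEAD windows stand for the most abundant receptor and crosslinker. Sequences run 5′ to 3′ in the direction of the gene, with the motif in capitals.
Fhl2, chr1:43196803-43196902, minus strand: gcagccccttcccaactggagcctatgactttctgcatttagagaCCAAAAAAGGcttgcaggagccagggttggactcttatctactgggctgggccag
Fhl2, chr1:43163962-43164037, minus strand: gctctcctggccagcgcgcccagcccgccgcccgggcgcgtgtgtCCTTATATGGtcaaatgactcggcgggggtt
Itgb6, chr2:60673694-60673788, minus strand: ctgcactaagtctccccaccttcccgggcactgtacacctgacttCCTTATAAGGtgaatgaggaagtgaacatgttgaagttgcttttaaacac
Fhl1, chrX:56779536-56779635, plus strand: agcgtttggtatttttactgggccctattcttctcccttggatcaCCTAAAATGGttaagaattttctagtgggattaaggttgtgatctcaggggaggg
Vcl, chr14:20929148-20929225, plus strand: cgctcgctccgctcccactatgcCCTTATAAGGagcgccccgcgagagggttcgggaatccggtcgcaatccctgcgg
Fermt2, chr14:45530215-45530314, minus strand: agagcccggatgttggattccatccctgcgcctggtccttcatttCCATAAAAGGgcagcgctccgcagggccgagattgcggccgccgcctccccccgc
Itgb1, chr8:128685602-128685653, plus strand: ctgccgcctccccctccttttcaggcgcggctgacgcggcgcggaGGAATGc
Flna, chrX:74246630-74246725, minus strand: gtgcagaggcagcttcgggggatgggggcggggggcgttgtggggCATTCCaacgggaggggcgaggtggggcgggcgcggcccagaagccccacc

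The remaining integrin subunits, those of leukocytes and platelets among them, had 10 loci, of which 6 passed the filter. Of these 6, 1 rose and 1 fell, where 9.06% of all tested loci rose and 9.85% fell. Itgal, the alpha chain of the leukocyte receptor LFA-1, had 27.3, 18.2, 22.4 and 24.7 CPM in YAP5SA, against 11.4, 10.7, 11.99 and 6.16 CPM in wild type. No library of one genotype reached the other, with a log2 fold change of 1.2 ± 0.21 (SE, adjusted p = 0.00296). Itgb7, a lymphocyte subunit, fell, with 5.53 ± 1.11 CPM in YAP5SA and 9.79 ± 1.99 CPM in wild type (log2 fold change -0.82 ± 0.22, adjusted p = 0.0284). It missed the threshold without YAP5SA library 2, 3 or 4 or wild type library 1, 2 or 3 (0.0631 to 0.0814), while Itgal kept its call without each library in turn. Itgb2, the shared leukocyte beta chain, averaged 12.02 ± 5.44 CPM in YAP5SA and 6.08 ± 2.43 CPM in wild type (adjusted p = 0.0919), and Itgam averaged 11.3 ± 5.40 CPM in YAP5SA and 5.93 ± 1.45 CPM in wild type (adjusted p = 0.0718). The block called 4 of these loci, against 2 without it, and leaving out 1 library called 1 in 6 of 8 cases and 2 in the others.

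Of 10 macrophage markers tested 9 rose and none fell, with a median log2 fold change of 0.82. Their sum was 598 to 867 CPM in YAP5SA and 328 to 445 CPM in wild type, and none was at 0. The chemokine receptor Cx3cr1, the mannose receptor Mrc1, the complement gene C1qb and the adhesion receptor Adgre1 had log2 fold changes of 0.94, 0.98, 0.65 and 1.09. The part of macrophage RNA in the integrin values was not tested.

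Of 49 further focal adhesion genes tested, 6 rose and 6 fell, with a median log2 fold change of -0.04. Over all tested loci 9.06% rose and 9.85% fell. Ajuba, a LIM protein that binds the Hippo kinase LATS, had 134, 141, 140.0 and 145 CPM in YAP5SA, against 110.4, 107, 115 and 113 CPM in wild type. It was higher in every YAP5SA library, at 0.33 ± 0.04 on the log2 scale (SE, adjusted p = 0.00073). Pak1, a kinase downstream of Rac and Cdc42, averaged 65.9 ± 4.26 CPM in YAP5SA and 91.1 ± 4.90 CPM in wild type (-0.47 ± 0.06, adjusted p = 0.00075). The paxillin relative Tgfb1i1, Hic-5, which is abundant in smooth muscle, averaged 87.6 ± 2.17 CPM in YAP5SA and 111 ± 5.57 CPM in wild type (-0.35 ± 0.05, adjusted p = 0.00116). Efs, a relative of Bcar1, fell as well, at -0.36 ± 0.05 on the log2 scale (adjusted p = 0.00146). The blood-cell forms Parvg and Fermt3, singled out after their values were seen, rose by 1.19 and 0.80 on the log2 scale.

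Of 30 integrin ligands tested 5 rose and 5 fell, with a median log2 fold change of 0.01, where 9.06% of all tested loci rose and 9.85% fell. Egfl6, a matrix protein that binds the receptor of Itga8 and Itgb1, had 125, 142, 129 and 107 CPM in YAP5SA, against 42.7, 48.7, 56.2 and 37.1 CPM in wild type. Every YAP5SA library was above every wild type library by a wide margin, and the log2 fold change was 1.44 ± 0.12 (SE, adjusted p = 6.9e-05). Vcam1, bound by the receptor of Itga4, averaged 71.2 ± 3.32 CPM in YAP5SA and 104 ± 0.933 CPM in wild type (-0.55 ± 0.05, adjusted p = 8.6e-05). Edil3, an RGD protein bound by alpha v integrins, averaged 10.7 ± 1.39 CPM in YAP5SA and 22.6 ± 0.701 CPM in wild type (-1.08 ± 0.13, adjusted p = 0.0004). Tnn, tenascin-W, averaged 24.3 ± 9.41 CPM in YAP5SA and 78.7 ± 21.9 CPM in wild type (-1.69 ± 0.26, adjusted p = 0.00162).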

How the data were processed

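Total RNA of whole E13.5 stomachs was profiled in 4 YAP5SA and 4 wild type libraries, prepared from Trizol extracts with a TruSeq kit per the labels' protocols. The submitters' processing notes name the mm10 build, Cuffdiff, Cufflinks 2.2.1 and TopHat2 2.0.9 with no role or order. The deposited per-library table holds raw fragments per locus, which are estimated counts (10.6% to 11.1% of values not whole), and FPKM scaled by the authors. A deposited table of group counts was not used. The table numbers its libraries from 0, and these were taken as 1 to 4 of the labels, which only names libraries and sets the block.

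Fragments were rounded. Unnamed loci (3582, with 1.85% to 1.97% of fragments) were left out. edgeR 4.0.16 in R 4.3.3 tested genotype alone (quasi-likelihood, robust, TMM, filterByExpr with 10 and 15 fragments), two-sided, with Benjamini-Hochberg adjustment over 14574 loci, and its steps were tested on simulated data. p-values measure the spread between libraries, which may be technical. Deviations of same-numbered libraries correlated at 0.220, 0.143, 0.141 and 0.206 between genotypes, so a fit with the number as a block is given where it changes a call. Alternatives were RLE and upper-quartile factors, factors within 10 bins of coverage density, DESeq2 1.42.0, limma 3.58.1 (voom, and log2(FPKM + 0.1) or log2(FPKM + 1)), other filters, and leaving out libraries. GENCODE M21, of the same build, gave exon lengths, and coordinates are those deposited.

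The 39 genes, the lists and the tests were chosen with earlier results of these data known. Per-library values are given for called genes and for Itgb1, Tln1, Vcl, Ptk2 and Ilk, and up to 4 called genes of smallest p are named from a list, others being said to be chosen later, and the library values of Lpp were added after they were seen. The lists of enteric neurons (7 of 9 tested fell), enteric glia (5 of 6 fell), interstitial cells of Cajal (4 of 4 fell), mesothelium (1 of 5 fell) and endothelium (1 of 10 rose) are given here only, except where set beside Itgb8 or Itgb3.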

Additional observations from a re-analysis of the deposited data

Results flagged for a closer look

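Of 78 sets of 4 libraries, 1 gene in 1 genotype each, 3 held a library far from the other 3, and chance alone gives about 1 in 20. Fermt1 was at 38.9 CPM in YAP5SA library 1 and at 15.9 to 18.8 CPM in the other YAP5SA libraries. Itga6 was at 179.7 CPM in wild type library 1 and at 155 to 158 CPM in the other wild type libraries. Itgav was at 137 CPM in YAP5SA library 2 and at 157 to 159 CPM in the other YAP5SA libraries.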

How the results depend on the processing

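Of the 12 called genes, 6 kept their call in all 19 alternatives (Tns1, Itgb3, Itga5, Fermt1, Itgb6 and Bcar1) and 6 lost it in at least 1. Of the 26 others, 7 were called in at least 1 alternative and 19 in none, and no called gene changed sign. Leaving out 1 library at a time gave 9 to 15 called, 2 higher (without YAP5SA library 3) to 6 higher (without wild type library 3), and 5 lower (without YAP5SA library 4) to 11 lower (without YAP5SA library 1), with a median log2 fold change of -0.04 to 0.0003. Without both libraries numbered 1 that median was -0.063. The replicate block called 4 of the other integrin subunits, against 2, and 1 library fewer gave 1 to 2. One library fewer gave 0 to 3 mesothelium and 0 to 1 megakaryocyte markers called (0 in 7 of 8 cases). It gave 10 to 14 further focal adhesion genes, 8 to 10 ligands, 12 to 13 epithelial, 6 to 7 smooth muscle and 8 to 9 macrophage markers. The block changed calls only in Itga6, Itga7, Flna, Fhl1, Itga11 and the joined Itga1 locus among the 39 genes. The cause of these shifts was not tested. Whether depth set the width of an interval was not tested: the SE of the log2 fold change was 0.301 for Itgb6, 0.296 for Itga7, 0.197 for Itgb8, 0.195 for Itga11 and 0.265 for Itgb4. A p above the threshold does not show that a gene did not differ.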
